A study of Rhizophagus irregularis DAOM 181602=DAOM 197198 with 30 samples.

Results

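The nuclear-encoded respiratory chain and ATP synthase of the arbuscular mycorrhizal fungus Rhizophagus irregularis are described here across a time course of germinating spores and a culture with plant roots. The genes were taken from the description text of the gene models. Models whose text names a respiratory complex, ATP synthase, succinate dehydrogenase, cytochrome c oxidase or an NADH or quinone oxidoreductase were kept, and no expression value was used. Of 30282 models, 100 matched. Of these, 11 that name an assembly factor or the vacuolar ATPase and 20 that carry the text of a mitochondrion-encoded subunit were dropped, which left 69 models. They comprised 24 subunits of complex I, 4 of complex II, 7 of complex III, 9 of complex IV and 9 of complex V, together 53 subunits. A further 3 models were other NADH or quinone enzymes. The remaining 13 models were left unclassed because their text names a chain component without describing a subunit of it. They include 5 protein kinases or kinase-like models with a cytochrome oxidase subunit IV profile and 2 AAA ATPases similar to the chaperone BCS1. No description in the tables matched alternative oxidase.

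Respiring mitochondria pass electrons from NADH through complex I, or from succinate through complex II, to ubiquinone, then through complex III and cytochrome c to oxygen at complex IV. Complexes I, III and IV pump protons as they work, and complex V, the ATP synthase, lets the protons flow back to make ATP. Fungi can also carry single-protein NADH dehydrogenases that feed ubiquinone without pumping protons. Germinating spores of these fungi live on stored lipid until they meet a root. Strigolactones, signals released by plant roots, are known to stimulate respiration in spores of related fungi.

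Spores of strain DAOM197198 were germinated in liquid M medium in the dark under 2% CO2 for 2 d. They then received the synthetic strigolactone GR24 at 1e-06 M, or its solvent acetone at a dilution of 1 in 1000, for 1 h, 2 d, 7 d or 14 d under the conditions used before. In a second set, 60000 spores lay on cellophane above carrot hairy roots for 14 d, also in the dark under 2% CO2, so that they were exposed to root exudates, and controls had no roots beneath. Messenger RNA bound to poly-T beads was sequenced. The 25 libraries analysed here comprise 2 acetone and 3 GR24 libraries at 1 h, 3 and 2 at 2 d, 2 and 2 at 7 d, 3 and 3 at 14 d, and 3 libraries with root exudates and 2 without roots. The labels do not say that replicates were separate cultures, and the p-values given here cover no more than the spread among these libraries. In bulk RNA, a change in the number of living cells and a change in RNA per cell cannot be told apart.

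Libraries held 5786080 to 11812317 gene reads, of which 0.12% to 1.09% matched more than 1 model. No pair of libraries in a group was alike within sampling noise, so none was counted as a duplicate. For the root set, sample titles and column headings disagree on which libraries had roots. The titles were followed here, so each root difference below changes sign if the headings are correct. Levels of single genes are given as CPM (counts scaled to library size, with TMM factors), and levels are compared between genes per length, as RPKM. Differences are log2 fold changes with their standard error (SE) from edgeR's quasi-likelihood test. A gene is said to rise or fall where the Benjamini-Hochberg adjusted p over all models tested was under 0.05.

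All 53 subunits were expressed in every group and passed the filter on low counts in every comparison. The median subunit had a mean RPKM of 248.0 over the 25 libraries, and the median of all 15712 models tested over the time course was 24.4. Of the 53 subunits, 52 lay above the median of all models. The exception was a second, weakly expressed model of cytochrome oxidase subunit VIb (protein 343841) at 23.3 RPKM. Of the unclassed models, 2 had no read in any library, and 2 others, another AAA ATPase and a short subunit IV model, were too low to be tested in any comparison.

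Median RPKM over the subunits of a complex was lowest for complex I, at 122, and highest for complex IV, at 514, with 279 for complex III, 303 for complex II and 369 for complex V. Cytochrome oxidase subunit Vb (protein 129072), a small zinc-binding subunit at the rim of complex IV, had the highest RPKM of all, at 1141. Subunit IV of the same complex (protein 223506) followed at 579 within it. In complex V the F subunit (protein 30079), part of the membrane sector, stood at 732 and the catalytic beta subunit (protein 337722) at 658. In complex III, QCR7 (protein 58424), a small subunit on the matrix side, stood at 475 and the acidic hinge protein (protein 281311), which helps cytochrome c dock, at 410. The highest complex I members were GRIM-19 (protein 66760), an accessory subunit, at 306 RPKM and a fungal accessory subunit (protein 342248) at 265.

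Complex II, which also serves the tricarboxylic acid cycle, had the smallest ratio of highest to lowest RPKM among the complexes. Such a ratio cannot shrink as subunits are added, and complex II has the fewest. Its RPKM ran from 233 for the flavoprotein that oxidises succinate (protein 346824), through 271 for the cytochrome b subunit (protein 182172) and 336 for the CybS membrane anchor (protein 339637), to 429 for the iron-sulphur subunit (protein 335652). The highest was 1.85 times the lowest. In complex IV the same ratio was 48.9, because of the weak second subunit VIb model, and in complexes I, III and V it was 4.53, 2.39 and 2.89. Outside the complexes, the highest level belonged to an unclassed flavoprotein (protein 348908) with cytochrome b5 and fumarate reductase domains, at 652 RPKM. In yeast, fumarate reductases of this kind are soluble enzymes that use fumarate as electron acceptor.

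Over the time course the ratio of the highest to the lowest group mean had a median of 1.37 over the subunits and 1.99 over all models tested. Most models had lower levels than the subunits, as given above, and counting noise widens such ratios at low counts. Models of matched level were not compared, so whether the subunits vary less than genes of like level was not tested. The 53 subunits together took 0.971% ± 0.00362 of all gene reads (SD, n = 2) in acetone at 1 h and 0.802% ± 0.0129 (SD, n = 3) in acetone at 14 d. With GR24 the share was 0.922% ± 0.0167 (n = 3) at 1 h, 1.01% ± 0.00792 (n = 2) at 2 d, 0.929% ± 0.0528 (n = 2) at 7 d and 0.808% ± 0.00715 (n = 3) at 14 d. Every 14 d library was below every earlier library in both treatments. In acetone, 26 of 53 subunits had their highest group mean at 1 h and 31 their lowest at 14 d. With GR24, 26 had their highest mean at 2 d and 37 their lowest at 14 d.

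**Figure D1:**
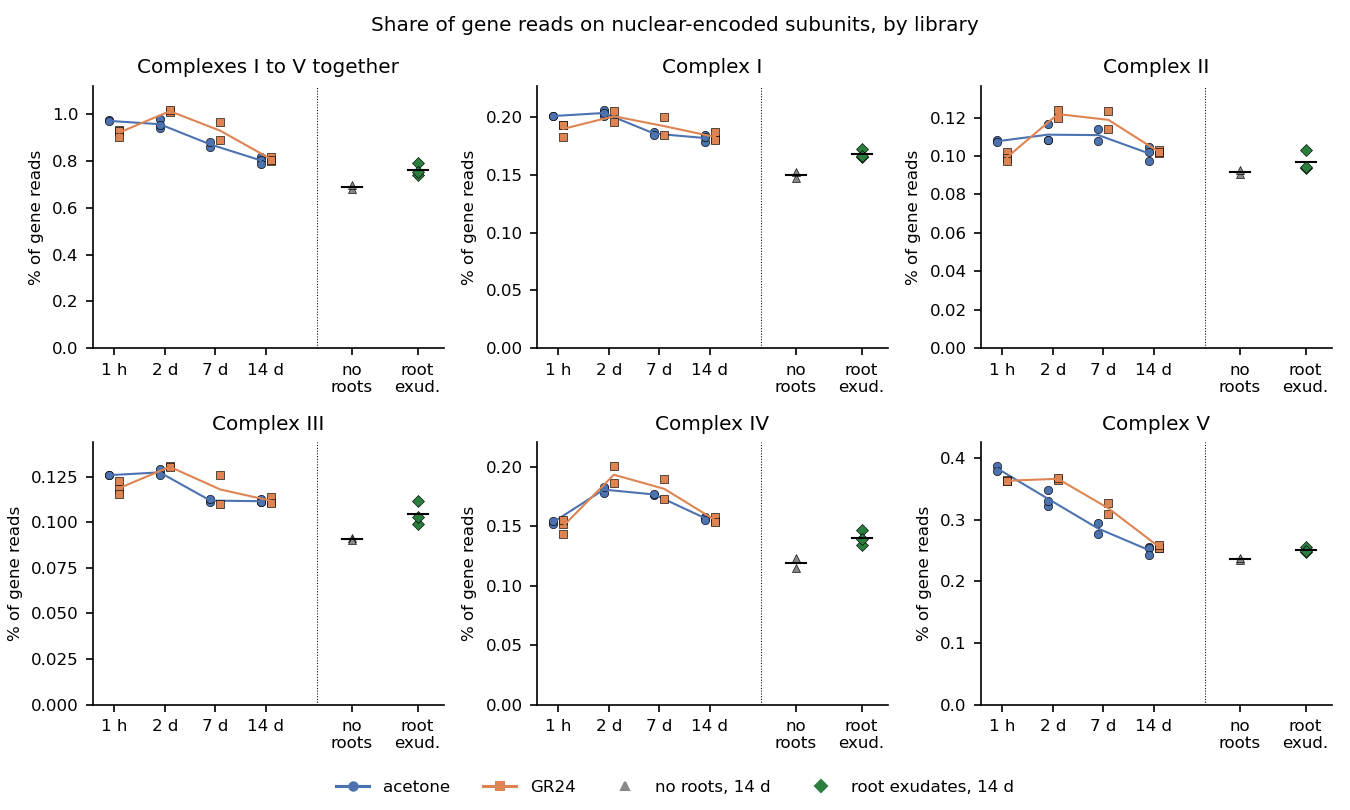
Share of all gene reads (percent, y axis) taken by the subunits of complexes I to V together and by each complex, in each library (points), by time and treatment (x axis), with lines or bars for group means. The summed share falls from about 0.97% at 1 h to 0.80% at 14 d in acetone, and libraries with root exudates sit above those without roots.

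Between 1 h and 14 d, more members fell than rose, and nearly all ATP synthase subunits fell. In acetone 9 of 65 tested members rose and 28 fell, where 54.2% of all models passed the test, 27.4% higher and 26.8% lower. With GR24 9 rose and 35 fell, where 61.4% of all models passed, 29.2% higher and 32.2% lower. The median log2 change of the members was -0.19 in acetone and -0.22 with GR24, and that of all models tested was 0.02 and -0.01. A total of 26 members fell in both treatments, 92.9% of those that fell in acetone and 74.3% of those that fell with GR24, 8 rose in both, and none moved in opposite directions. Over all models tested in both treatments the same shares were 86.0% and 71.8%, and 0.731% moved in opposite directions. In acetone 37 of 53 subunits had every 14 d library below every 1 h library, as had 35.1% of all models. With GR24 34 of 53 did, as had 33.3% of all models.

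Of the 9 ATP synthase subunits, 8 fell in acetone and all 9 fell with GR24, with median log2 changes of -0.56 and -0.50. Over all models 26.8% and 32.2% fell. The call of the F subunit with GR24, the last of the 9, rests on few fits, as given below. The alpha subunit (protein 345985), which alternates with the catalytic beta subunits in the head of the enzyme, fell furthest. Its level was 1010.1 and 952 CPM in acetone at 1 h, 646, 687 and 635 at 2 d, 473 and 503 at 7 d, and 399.5, 398 and 382 at 14 d. Each later group lay wholly below the one before, and GR24 libraries followed the same order. The fall from 1 h to 14 d was -1.31 on the log2 scale (SE 0.06, adjusted p = 1.17e-15), 2.48-fold, in acetone and -1.27 (SE 0.07, adjusted p = 3.39e-15) with GR24.

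The beta subunit (protein 337722) stood at 1291 and 1283 CPM in acetone at 1 h and at 895, 886 and 819.5 at 14 d. It fell by 0.56 on the log2 scale (SE 0.06, adjusted p = 1.84e-08), much less than alpha, so the 2 head subunits did not keep a fixed ratio of reads. The gamma subunit (protein 175375), the rotating shaft, had 276 and 295 CPM in acetone at 1 h and 165, 181 and 170.5 at 14 d, without overlap, a log2 change of -0.72 (SE 0.06, adjusted p = 4.66e-10). The B subunit of the outer stalk (protein 337396) fell by 0.57 (SE 0.06, adjusted p = 2.77e-08). The smallest change was that of the membrane-sector F subunit (protein 30079). It rose first, from 211 and 196 CPM in acetone at 1 h to 231, 233 and 259.6 at 2 d, and was at 188, 193 and 193 at 14 d, with a log2 change from 1 h to 14 d of -0.08 (SE 0.07, adjusted p = 0.33). With GR24 its 14 d change of -0.16 (SE 0.07) had an adjusted p of 0.0442. That call was lost in 8 of 10 fits that left out 1 library, with adjusted p up to 0.568 without GR24 1 h replicate 2, and under the other settings adjusted p ran from 0.0339 to 0.167.

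**Figure D2:**
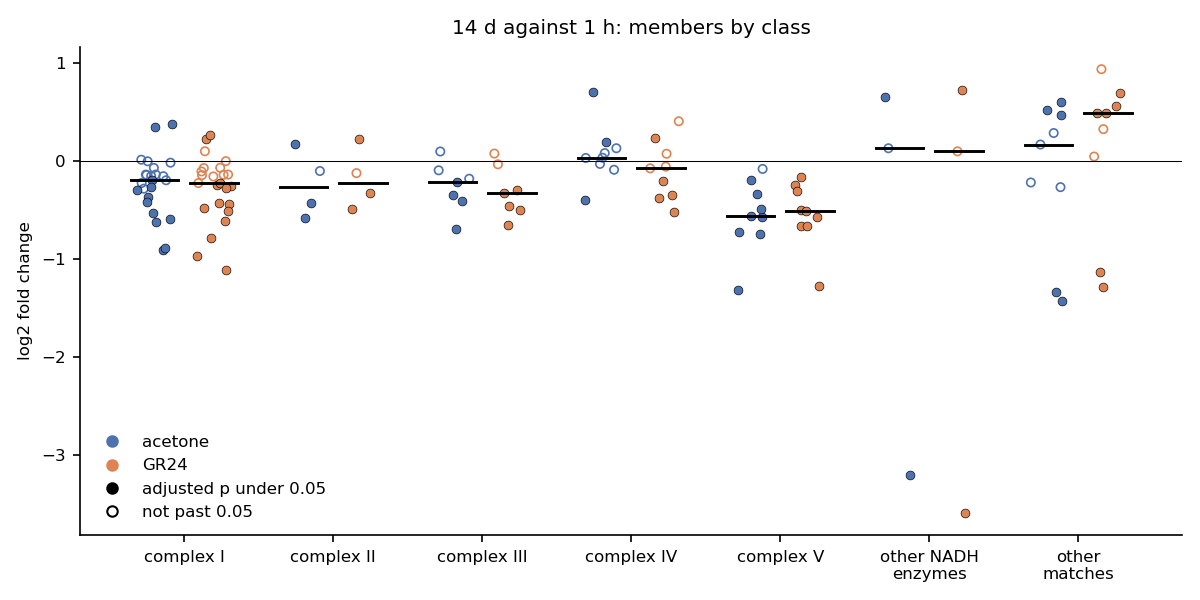
Log2 fold change from 1 h to 14 d (y axis) of every tested member by class (x axis) in acetone and with GR24, with filled points for an adjusted p under 0.05 and a bar at the class median. Complex V sits lowest, with medians of -0.56 and -0.50, and complex IV lies around 0.

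In complex I, 2 of 24 subunits rose and 10 fell in acetone, and 2 rose and 12 fell with GR24. Over all models 27.4% rose and 26.8% fell in acetone, and 29.2% rose and 32.2% fell with GR24. The accessory subunits NDUFA2, NDUFS4 and NDUFS6 were among those that fell. NDUFA2 (protein 118100), which in mammals sits in the NADH-oxidising arm, went from 57.9 and 53.7 CPM in acetone at 1 h to 31.6, 27.9 and 29.3 at 14 d. NDUFS4 (protein 341977), an accessory subunit of the same arm that is needed for a stable complex in mammals, went from 50.7 and 52 CPM to 26.7, 26 and 30.2. The groups did not overlap for either gene. The log2 changes were -0.91 (SE 0.13, adjusted p = 1.36e-06) for NDUFA2 and -0.88 (SE 0.13, adjusted p = 2.01e-06) for NDUFS4 in acetone, and -0.96 (SE 0.11, adjusted p = 2.26e-08) and -1.11 (SE 0.12, adjusted p = 5.34e-09) with GR24. NDUFS6 (protein 26874), which binds zinc at the same arm, fell by 0.62 (SE 0.10, adjusted p = 8.97e-06) in acetone.

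Core subunits of complex I did not all move alike. NDUFS1 (protein 337262), the largest iron-sulphur subunit, had 234 and 238 CPM in acetone at 1 h and 242, 235 and 235 at 14 d, groups that overlap, with a log2 change of 0.02 (SE 0.06, adjusted p = 0.831). NDUFV1 (protein 91005), which holds the flavin that accepts electrons from NADH, changed by -0.07 on the log2 scale and did not pass. NDUFS3 (protein 335838), a core subunit of the arm that reduces quinone, fell by 0.53 (SE 0.08, adjusted p = 7.64e-06) in acetone and by 0.22 (SE 0.07, adjusted p = 0.0116) with GR24. Of the 2 that rose, GRIM-19 (protein 66760) rose from 96.5 and 95 CPM in acetone at 1 h to 158, 138 and 157 at 2 d and stayed at 123, 127 and 114 at 14 d, a log2 change to 14 d of 0.35 (SE 0.08, adjusted p = 0.000475). A second model of NDUFA9 (protein 9288) rose by 0.38 (SE 0.09, adjusted p = 0.00107) and by 0.27 (SE 0.08, adjusted p = 0.00723), whereas the first NDUFA9 model (protein 337087) fell by 0.29 and 0.24. Each rise of the second model was lost in 1 of 10 fits that left out 1 library. Its log2 changes in these fits ran from 0.28 to 0.49 in acetone and from 0.22 to 0.33 with GR24. The fall of the first model with GR24 did not pass in 2 of 10 fits that left out 1 library, with adjusted p up to 0.105 without GR24 1 h replicate 2.

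Complex II split by subunit. The CybS anchor (protein 339637) stood at 187 and 182 CPM in acetone at 1 h and at 146, 139 and 126 at 14 d, a log2 fall of -0.43 (SE 0.07, adjusted p = 1.06e-05). The cytochrome b subunit (protein 182172), the other membrane subunit, went from 179.6 and 178 to 121, 127 and 109.5, a change of -0.58 (SE 0.07, adjusted p = 1.1e-07). Both membrane subunits were lower in every 14 d library than in every 1 h library. The flavoprotein (protein 346824) moved the other way, from 346 and 340.4 to 389, 389.6 and 381, a rise of 0.18 (SE 0.06, adjusted p = 0.0205) in acetone and 0.23 (SE 0.06, adjusted p = 0.00201) with GR24. The rise in acetone did not pass in 3 of 10 fits that left out 1 library, with adjusted p up to 0.145 without acetone 1 h replicate 3. The iron-sulphur subunit (protein 335652) changed by -0.10 (SE 0.06, adjusted p = 0.162).

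In complex III, 4 of 7 subunits fell in acetone and 5 with GR24, and none rose. Over all models 26.8% and 32.2% fell. Cytochrome c1 (protein 163211), the haem subunit that hands electrons to cytochrome c, had 198 and 192 CPM in acetone at 1 h and 116, 127 and 117 at 14 d, a fall of -0.69 (SE 0.08, adjusted p = 3.22e-08). The small subunit QCR9 (protein 345945) fell by 0.41 (SE 0.12, adjusted p = 0.00594) in acetone and 0.65 (SE 0.12, adjusted p = 3.22e-05) with GR24, and QCR8 (protein 52069) by 0.34 and 0.46. Without acetone 1 h replicate 3 the adjusted p of the falls in acetone was 0.0542 for QCR9 and 0.0549 for QCR8. QCR7 (protein 58424) did not pass in either, with 0.10 (SE 0.06, adjusted p = 0.189) and 0.08 (SE 0.07, adjusted p = 0.319).

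The summed share of gene reads of complex IV was 0.152% and 0.155% in acetone at 1 h, 0.182%, 0.178% and 0.183% at 2 d, 0.176% and 0.177% at 7 d and 0.158%, 0.157% and 0.155% at 14 d. With GR24 it was 0.152%, 0.155% and 0.143% at 1 h, 0.186% and 0.201% at 2 d, 0.190% and 0.173% at 7 d and 0.154%, 0.158% and 0.154% at 14 d. In both treatments the 2 d and 7 d libraries lay above all those at 1 h and at 14 d. With GR24 the shares of complexes I, II, III and V were also higher in both 2 d libraries than in every 1 h and 14 d library. They were 0.205% and 0.196% for complex I, 0.120% and 0.124% for complex II and 0.131% and 0.130% for complex III. For complex V the margin was narrow, at 0.36543% and 0.36829% against up to 0.36453% at 1 h. From 1 h to 2 d, 4 of the 9 complex IV subunits rose and none fell in acetone. Of all models 40.5% passed at that step, 21.6% higher and 18.9% lower. With GR24, 7 of 9 rose and none fell, where 51.0% of all models passed, 25.7% higher and 25.3% lower. Among these 7, the call of subunit Vb (protein 129072) was lost in 8 of 10 fits that left out 1 library. Its log2 change in these fits ran from 0.025 to 0.383. In complex V over the same step 1 subunit rose and 7 fell in acetone, and 1 rose and 3 fell with GR24. Over all members the counts at 2 d were 9 higher and 17 lower in acetone and 20 higher and 13 lower with GR24. Left-out libraries moved these sums over ranges of 15 to 26 and 19 to 32, with the 19 found without GR24 2 d replicate 3.

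The rise at 2 d was clearest in small subunits that surround the catalytic core of the oxidase. Subunit VIIa (protein 10364) had 79.5 and 100.3 CPM in acetone at 1 h, 150.4, 135 and 203 at 2 d, 131 and 88.1 at 7 d, and 89.8, 84.9 and 99.2 at 14 d. A second, fungal type of VIIa (protein 347985) had 65.6 and 79.5 CPM at 1 h, 126, 109.7 and 143 at 2 d, 106 and 83.6 at 7 d, and 67.2, 73.5 and 79.4 at 14 d. Subunit VIb (protein 336580), which in mammals lies between the oxidase monomers, had 54.8 and 66.4 CPM at 1 h, 83.2, 86.3 and 108 at 2 d, and 61.8, 66.6 and 62.5 at 14 d. For all 3 genes every 2 d library was above every 1 h and every 14 d library. The log2 rises to 2 d were 0.87 (SE 0.24, adjusted p = 0.029) for VIIa, 0.81 (SE 0.13, adjusted p = 0.000107) for its fungal type and 0.62 (SE 0.11, adjusted p = 4.22e-05) for VIb in acetone, and 0.65, 0.66 and 0.74 with GR24. The VIIa rise in acetone did not pass in 4 of 10 fits that left out 1 library, with adjusted p up to 0.168 without acetone 1 h replicate 2.

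At 14 d against 1 h, 2 of 9 oxidase subunits rose and 1 fell in acetone, and 1 rose and 4 fell with GR24. Over all models 54.2% passed in acetone and 61.4% with GR24. Subunit Va (protein 335227) rose in both, by 0.20 (SE 0.06, adjusted p = 0.00803) and 0.24 (SE 0.06, adjusted p = 0.00183), with an adjusted p of 0.14 in acetone without 1 h replicate 3. Subunit IV (protein 223506) fell in both, by 0.39 (SE 0.07, adjusted p = 1.87e-05) and 0.37 (SE 0.06, adjusted p = 1.53e-05). Subunit Vb (protein 129072) did not pass, at 0.13 (SE 0.06, adjusted p = 0.0716) and 0.08 (SE 0.08, adjusted p = 0.406). The weak second VIb model (protein 343841) rose by 0.71 (SE 0.26, adjusted p = 0.022) in acetone, a call that did not pass in 3 of 10 fits that left out 1 library, with adjusted p up to 0.176 without acetone 1 h replicate 3.

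**Figure D3:**
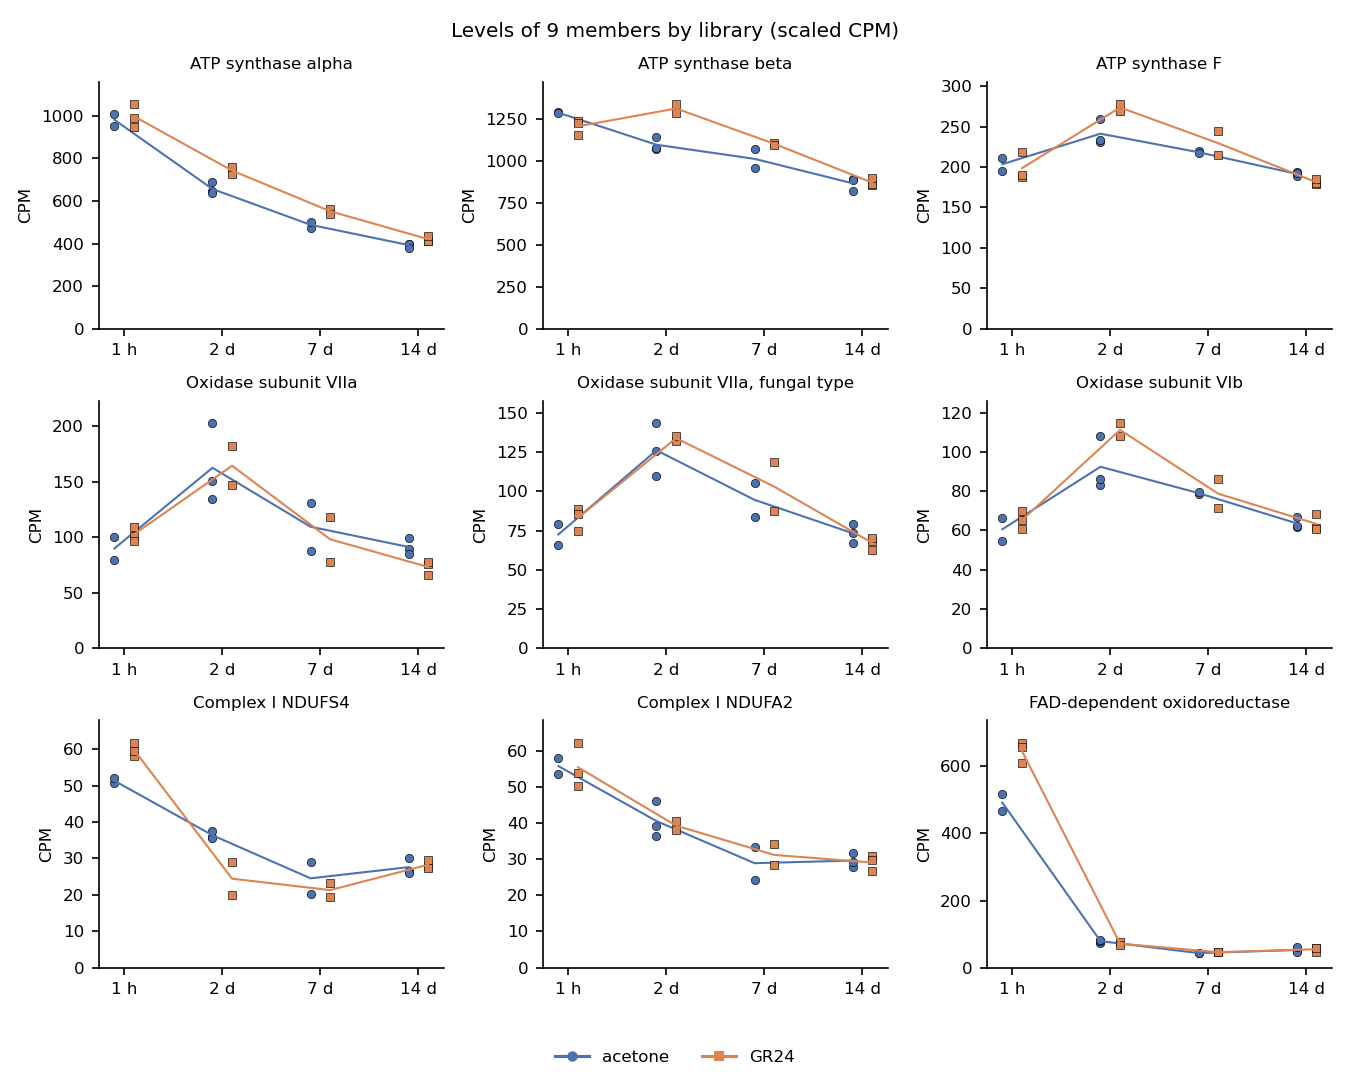
Level (CPM, y axis) of 9 members in each time-course library (points) by time (x axis) and treatment, with lines for group means. ATP synthase alpha falls at each step, the oxidase subunits VIIa and VIb peak at 2 d, and the FAD-dependent oxidoreductase is high at 1 h alone.

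The widest change of any member was outside the complexes. An FAD-dependent oxidoreductase annotated with NADH dehydrogenase activity (protein 32682) had 517 and 467 CPM in acetone at 1 h and 72.8, 80.8 and 83.5 at 2 d, and lay between 42.5 and 62.8 in the 5 acetone libraries at 7 d and 14 d. The 1 h libraries stood alone at the high end in both treatments. Its log2 change from 1 h to 14 d was -3.21 (SE 0.10, adjusted p = 9.67e-16), 9.22-fold, in acetone and -3.59 (SE 0.08, adjusted p = 8.13e-23), 12.0-fold, with GR24. The description also holds a monodehydroascorbate and ferredoxin reductase group, so its place in the respiratory chain is not given by the text.

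The other 2 NADH dehydrogenases resemble single-protein enzymes that reduce ubiquinone. The first (protein 308493) rose from 45.7 and 40.4 CPM in acetone at 1 h to 71.6, 66.6 and 65.3 at 14 d, by 0.66 (SE 0.10, adjusted p = 8.49e-06) and with GR24 by 0.73 (SE 0.09, adjusted p = 2.33e-07). The second (protein 346091), which carries calcium-binding EF-hands, had 190.0 and 168 CPM at 1 h and 196, 193 and 196 at 14 d and did not pass, at 0.13 (SE 0.07, adjusted p = 0.0919). The fumarate reductase flavoprotein (protein 348908) rose from 1017 and 1003 CPM in acetone at 1 h to 1226, 1162 and 1219.5 at 2 d, 1365 and 1452 at 7 d and 1545, 1534 and 1506 at 14 d. Each group lay above the one before, and the rise to 14 d was 0.61 (SE 0.05, adjusted p = 1.07e-09) in acetone and 0.70 (SE 0.06, adjusted p = 4.33e-10) with GR24.

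Further unclassed members that rose in both treatments were the homologue of nuclear control of ATP synthase 2 (protein 67591), a mitochondrial protein that in yeast acts on the mitochondrial messages of ATP synthase, and complex I intermediate-associated protein 30 (protein 326179), an assembly factor in animals. The first went from 159 and 155 CPM in acetone at 1 h to 224, 209 and 218 at 14 d, by 0.47 (SE 0.06, adjusted p = 4.65e-07). The second rose by 0.53 (SE 0.15, adjusted p = 0.00699) in acetone, where the adjusted p was 0.146 without acetone 1 h replicate 3. Among the unclassed models, a short model with a weak match to succinate dehydrogenase (protein 26561) and a protein kinase (protein 27369) fell in both treatments, and another protein kinase (protein 166) rose with GR24.

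Few members passed the test between GR24 and acetone libraries of the same time, but these fits often miss small differences. In simulated counts they recovered 16%, 10%, 10% and 34% of planted 1.3-fold changes at 1 h, 2 d, 7 d and 14 d. The simulation gave every model the same spread between libraries and changed only a small part of the models. These shares are thus not the sensitivity for the members themselves. Members that did not pass are therefore not shown to be equal. At 1 h, 1 of 64 tested members was higher with GR24 and 2 were lower, where 10.4% of all models passed the test, 7.05% higher and 3.39% lower. At 2 d none of 65 passed by edgeR's quasi-likelihood test, where 2.15% of all models did, 1.02% higher and 1.13% lower. At 7 d none of 65 passed, where 6.43% of all models did, 4.31% higher and 2.12% lower. At 14 d 1 of 64 was lower and none was higher, where 3.25% of all models passed, 1.29% higher and 1.95% lower. At an unadjusted p under 0.05 the counts were 9 at 1 h, 4 higher and 5 lower, and 21 at 2 d, 16 higher and 5 lower. They were 3 at 7 d, all higher, and 2 at 14 d, 1 each way. Of all models, 21.5%, 16.4%, 15.8% and 14.5% passed that threshold at the 4 times, and at 2 d 7.58% were higher and 8.83% lower. DESeq2's Wald test called 2, 0, 0 and 1 members, and 8.23%, 2.01%, 3.67% and 3.17% of all models.

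At 1 h the FAD-dependent oxidoreductase (protein 32682) was higher with GR24. Its level was 517 and 467 CPM in acetone and 670.2, 657 and 609.7 with GR24, without overlap, a log2 difference of 0.40 (SE 0.07, adjusted p = 5.56e-05), and it passed in all 5 fits that left out 1 library. The complex I core subunit NDUFS3 (protein 335838) had 107 and 125 CPM in acetone and 98.2, 95.1 and 96.6 with GR24, every GR24 library being lower. Its difference was -0.26 (SE 0.08, adjusted p = 0.0483), and it did not pass in 3 of 5 fits that left out 1 library, with adjusted p up to 0.674 without acetone 1 h replicate 3. The fumarate reductase flavoprotein (protein 348908) had 1017 and 1003 CPM in acetone and 870.3, 876 and 909 with GR24, also without overlap. Its difference was -0.19 (SE 0.06, adjusted p = 0.0325), with adjusted p up to 0.289 without acetone 1 h replicate 2. Without 1 library the count of calls at 1 h ran from 1 to 4.

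At 2 d most subunits of complexes II to V had a log2 difference above 0 with GR24, although none passed. The log2 difference was above 0 for 35 of 53 subunits, and the median was 0.08 over the subunits and 0.00 over all models tested. Median differences were 0.20 in complex II, 0.11 in complex III, 0.14 in complex IV and 0.17 in complex V. In complex I the median was 0.00, with 12 of 24 subunits above 0. Both GR24 libraries were above all 3 acetone libraries for 25 of 53 subunits, 47.2%, as they were for 17.2% of all models. The ATP synthase delta/epsilon subunit (protein 131619), part of the rotor, had 163, 169 and 159 CPM in acetone and 191 and 212 with GR24, a difference of 0.29 (SE 0.08, adjusted p = 0.0629). The beta subunit (protein 337722) had 1069.5, 1143 and 1076 CPM in acetone and 1285 and 1339 with GR24, a difference of 0.25 (SE 0.08, adjusted p = 0.119). The count at 2 d depends on the fit, as 9 members passed, 8 higher and 1 lower, when all time-course libraries were fitted together, a fit in which 4.76% of all models passed. Without a filter on low counts 7 passed, of which 6 were higher, and 4.02% of all models did.

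The libraries that were high at 2 d also differed in mitochondrial transcripts. The 18 dropped models whose best match is a protein encoded in the mitochondrial genome of Rhizophagus are a measure outside the members. At 2 d with GR24 all 14 tested had a log2 difference above 0, with a median of 1.80. Of the 14, 6 rose, or 42.9%, where 1.02% of all models did. Their reads were few. ATP synthase subunit 6 (protein 1087) had 4.78, 1.79 and 4.32 CPM in acetone and 14.3 and 15.4 with GR24, a difference of 2.08 (SE 0.29, adjusted p = 0.00216). The share of reads matching several models was also higher with GR24 at 2 d, at 0.8065% and 0.7895%, than in acetone, at 0.4375%, 0.2917% and 0.3933%. Their part in the differences of the nuclear subunits was not tested.

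At 14 d oxidase subunit VIIa (protein 10364) was the member that passed. It had 89.8, 84.9 and 99.2 CPM in acetone and 65.9, 75.9 and 77.9 with GR24, without overlap, a difference of -0.32 (SE 0.08, adjusted p = 0.0162). It did not pass in 2 of 6 fits that left out 1 library, with adjusted p up to 0.141 without acetone 14 d replicate 3, and under the other settings its adjusted p ran from 0.000322 to 0.65. In complex II no subunit passed at any time. For the complex II flavoprotein (protein 346824) the difference was -0.10 (SE 0.07) at 1 h, 0.21 (SE 0.08) at 2 d, 0.10 (SE 0.08) at 7 d and -0.02 (SE 0.04) at 14 d.

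**Figure D4:**
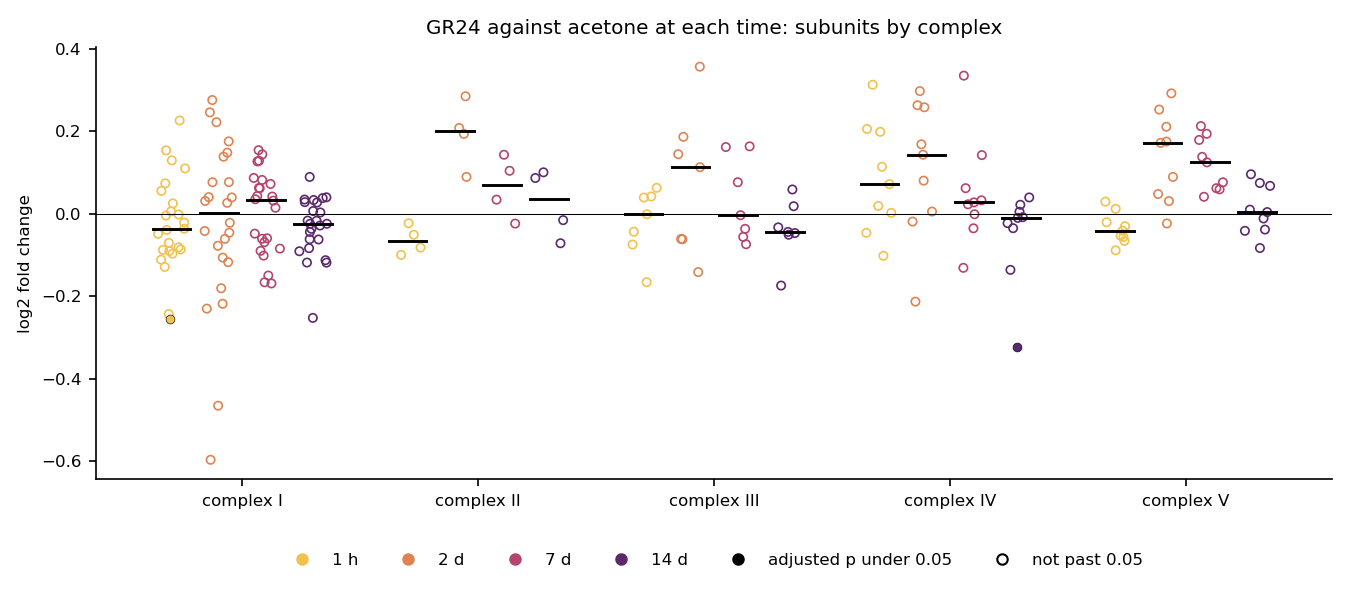
Log2 fold change of GR24 against acetone (y axis) of the 53 subunits at 1 h, 2 d, 7 d and 14 d, by complex (x axis), with filled points for an adjusted p under 0.05. Points scatter around 0, with medians above 0 in complexes II to V at 2 d, and the filled points are NDUFS3 at 1 h and oxidase VIIa at 14 d.

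A single GR24 effect common to the 4 times passed for 1 of 65 members, where 3.84% of all models passed, 2.17% higher and 1.67% lower. It was ATP synthase alpha (protein 345985), higher by 0.12 (SE 0.03, adjusted p = 0.0456), or 1.08-fold. Its differences at 1 h, 2 d, 7 d and 14 d were 0.03, 0.17, 0.18 and 0.10, none of which passed alone. This call did not pass in 15 of 20 fits that left out 1 library, with adjusted p up to 0.137 without acetone 7 d replicate 1. The difference between GR24 and acetone changed with time for 5 of 65 members, where 10.1% of all models passed that interaction test.

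Those 5 members did not share 1 pattern. NDUFS4 (protein 341977; interaction adjusted p = 0.0189) had 35.8, 35.7 and 37.6 CPM in acetone and 29 and 19.9 with GR24 at 2 d, where GR24 was lower without overlap. At 1 h it had 50.7 and 52 CPM in acetone and 61.8, 58.3 and 59.4 with GR24, where GR24 was higher without overlap. The ATP synthase beta (protein 337722; adjusted p = 0.0224) and delta/epsilon (protein 131619; adjusted p = 0.0353) subunits had their largest differences at 2 d, given above. NDUFS3 (protein 335838; adjusted p = 0.0399) and the FAD-dependent oxidoreductase (protein 32682; adjusted p = 0.0426) had theirs at 1 h. Leaving out 1 library gave 0 to 8 members, and 0 without acetone 1 h replicate 3 and also without GR24 2 d replicate 3.

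Root exudates gave the clearest treatment difference. Of 65 tested members, 16 were higher with root exudates and none was lower, where 15.2% of all models passed, 7.46% higher and 7.75% lower. The log2 difference was above 0 for 56 of 65, and its median was 0.22 over the members and -0.01 over all models. All 3 libraries with root exudates were above both without roots for 42 of 65 members, 64.6%, and for 23.8% of all models. The 53 subunits took 0.679% and 0.696% of gene reads without roots and 0.791%, 0.740% and 0.751% with root exudates, groups that do not overlap. The calls rest on both control libraries, as 6 members passed without no-roots replicate 1 and 6 without no-roots replicate 2, while all models called went from 2245 to 795 and 1106. These directions are by the sample titles and reverse if the column headings are right.

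In complex I, 3 of 24 subunits (12.5%) were higher, where 7.46% of all models were. NDUFS8 (protein 278401), an iron-sulphur subunit next to the quinone site, had 43.7 and 47.1 CPM without roots and 65.3, 64.2 and 62.1 with root exudates, a difference of 0.49 (SE 0.11, adjusted p = 0.0101). NDUFS1 (protein 337262) had 196 and 195 CPM without roots and 258, 248 and 229.5 with root exudates, 0.33 (SE 0.08, adjusted p = 0.0153). The groups did not overlap in either. The fungal accessory subunit (protein 342248) was higher by 0.34 (SE 0.09, adjusted p = 0.0255), and GRIM-19 (protein 66760) did not pass, at 0.40 (SE 0.12, adjusted p = 0.0507). The calls of NDUFS1 and protein 342248 were lost in 3 of 5 fits that left out 1 library, and that of NDUFS8 in 1.

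In complex II only the flavoprotein (protein 346824) passed, 1 of 4 subunits, where 7.46% of all models were higher. The flavoprotein had 327 and 335 CPM without roots and 486, 395 and 392 with root exudates, without overlap, 0.36 (SE 0.10, adjusted p = 0.03). That call was lost in 3 of 5 fits that left out 1 library, with log2 differences from 0.25 to 0.41. The iron-sulphur subunit differed by -0.01 (SE 0.07) and the membrane subunits CybS and cytochrome b by -0.09 (SE 0.08) and 0.14 (SE 0.08). In complex III the small subunits QCR9 (protein 345945), QCR8 (protein 52069) and the hinge protein (protein 281311) were higher, 3 of 7 subunits (42.9%). QCR9 had 27.4 and 29.4 CPM without roots and 43.7, 37.5 and 44.2 with root exudates, 0.56 (SE 0.14, adjusted p = 0.0179). QCR8 was higher by 0.53 (SE 0.11, adjusted p = 0.00945) and the hinge protein by 0.39 (SE 0.10, adjusted p = 0.0227), whereas cytochrome c1 (protein 163211) differed by 0.09 (SE 0.10, adjusted p = 0.572). Of 5 fits that left out 1 library, the QCR9 call was lost in 3, the QCR8 call in 1 and the hinge protein call in 2.

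In complex IV, 4 of 9 subunits (44.4%) were higher, where 7.46% of all models were. The fungal type of subunit VIIa (protein 347985) had 66.7 and 58.1 CPM without roots and 109.8, 81.9 and 99.1 with root exudates, 1.55-fold, or 0.64 (SE 0.13, adjusted p = 0.00775). The other VIIa (protein 10364) had 63.7 and 70.3 CPM without roots and 108, 81.1 and 103 with root exudates, 0.54 (SE 0.12, adjusted p = 0.015). Neither gene's groups overlapped. When 1 library was left out, the call of the fungal type was lost in 1 of 5 fits and that of the other VIIa in 3. The log2 differences in these fits ran from 0.54 to 0.74 and from 0.46 to 0.65. Subunits Va (protein 335227) and Vb (protein 129072) were higher by 0.35 (SE 0.10, adjusted p = 0.0364) and 0.28 (SE 0.07, adjusted p = 0.0224). Each of these 2 calls was lost in 3 of 5 fits that left out 1 library. Their log2 differences in these fits ran from 0.20 to 0.52 and from 0.24 to 0.32. Under the other settings their adjusted p reached 0.0973 and 0.0794.

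In complex V the D subunit of the outer stalk (protein 144661) was higher (11.1% of the subunits, against 7.46% of all models), and the other 8 subunits did not pass. It had 251 and 252 CPM without roots and 385, 339.8 and 369 with root exudates, 1.45-fold, or 0.53 (SE 0.08, adjusted p = 0.000949), with the groups well apart. The alpha (protein 345985) and beta (protein 337722) subunits differed by 0.14 (SE 0.07, adjusted p = 0.227) and 0.11 (SE 0.06, adjusted p = 0.268), and the B subunit (protein 337396) by 0.00 (SE 0.07, adjusted p = 0.988). The D subunit was also the stalk subunit that changed least over the time course, by -0.19 from 1 h to 14 d in acetone.

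Outside the complexes, the homologue of nuclear control of ATP synthase 2 (protein 67591) had 221 and 219 CPM without roots and 328, 339 and 323 with root exudates, 1.50-fold, or 0.58 (SE 0.07, adjusted p = 0.000329). The fumarate reductase flavoprotein (protein 348908) had 758 and 820.1 CPM without roots and 1077, 1032 and 1089 with root exudates, 0.43 (SE 0.07, adjusted p = 0.00172). Complex I intermediate-associated protein 30 (protein 326179) had 68.9 and 71.1 CPM without roots and 106, 98.8 and 99.1 with root exudates, 0.53 (SE 0.09, adjusted p = 0.00259). No group overlapped in these 3 genes, and with the D subunit of ATP synthase they are the 4 members that passed whichever library was left out. The EF-hand NADH dehydrogenase (protein 346091) was higher by 0.33 (SE 0.07, adjusted p = 0.00951), a call lost in 3 of 5 fits that left out 1 library. The FAD-dependent oxidoreductase (protein 32682) differed by -0.25 (SE 0.13, adjusted p = 0.227).

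**Figure D5:**
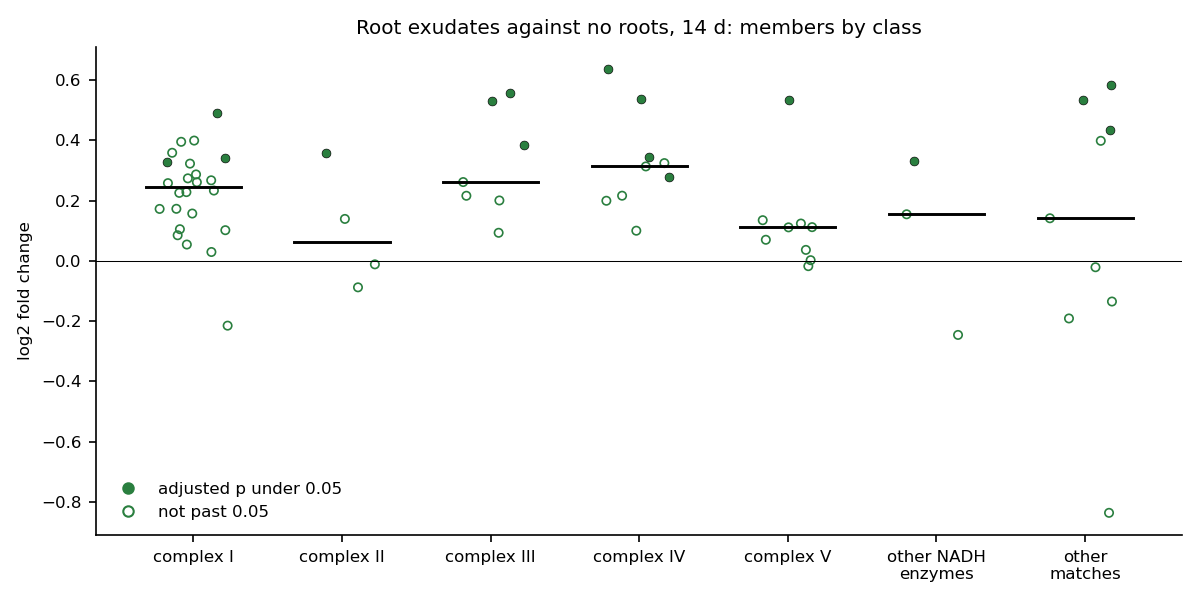
Log2 fold change of root exudates against no roots (y axis) of every tested member by class (x axis), with filled points for an adjusted p under 0.05 and a bar at the class median. Filled points, 16 in number, all lie above 0, and 56 of 65 members lie above 0.

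Other mitochondrial and proton-pumping genes give the setting of the root difference. The share called in each list is given in brackets, and over all models 15.2% passed, 7.46% higher and 7.75% lower. Of 14 vacuolar ATPase models, 5 were higher and none lower (35.7%), with a median of 0.24 and all 14 above 0. Of 21 models of the tricarboxylic acid cycle, 3 were higher and 1 lower (19.0%). Of 40 mitochondrial carriers and cytochrome c, 4 were higher and 1 lower (12.5%). Of 52 mitochondrial ribosomal proteins, 6 were higher and 1 lower (13.5%), and of 18 import proteins 2 and 0 (11.1%). Of 9 assembly factors 1 was higher (11.1%). Of 11 tested mitochondrion-encoded models 4 were higher (36.4%), with all 11 above 0 and a median of 1.96. Their levels were low and uneven between replicates, as for ATP synthase subunit 6 (protein 1087), at 0.753 and 0.262 CPM without roots and 7.35, 2.08 and 3.09 with root exudates. The share of reads matching several models was 0.133% and 0.1768% without roots and 0.4933%, 0.222% and 0.3805% with root exudates. The part of either in the differences of the nuclear members was not tested.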

How the data were processed

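The 5 deposited tables, 1 for each treatment comparison, list, per the file headers, counts of total and unique gene reads and RPKM values for 30282 models (JGI catalogue Gloin1). The counts of total gene reads, which include reads matching several models, were tested here, and the deposited RPKM values were used only to compare levels between genes. The aligner is not given in the sources used here. Samples were grouped by title, 5 of 30 samples are not analysed here, and the root libraries were scaled apart from the time course. The fits used edgeR 4.0.16 in R 4.3.3: filterByExpr by group, TMM scaling, a robust 2-sided quasi-likelihood test and Benjamini-Hochberg adjustment at 0.05 over all models tested. Each treatment comparison used its own libraries, steps in time used the libraries of 1 treatment, and the shared effect and the interaction used all time-course libraries. Fits were tested on simulated data. Alternatives were DESeq2 1.42.0 size factors and test, no filter, unique reads, 1 joint fit, a replicate block and leaving out each library.

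The members, classes and lists were chosen with earlier results of these data known. Genes are named where they are among the 2 highest of a class, belong to complex II, or are among the 6 largest changes in a direction in a comparison. A few others were named after their values were seen: gamma and B subunits, NDUFS1, NDUFS6, NDUFS8, NDUFV1, NDUFA9, QCR8, cytochrome c1 and oxidase subunits Va and VIb. No sequence or genome was used, and the tables give no coordinates.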

Additional observations from a re-analysis of the deposited data

Results flagged for a closer look

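The difference between GR24 and acetone changed over the 4 times, by the interaction in edgeR's quasi-likelihood test, for 5 members. For NDUFS4 (protein 341977; adjusted p = 0.0189) the log2 difference was 0.23 (SE 0.10) at 1 h, -0.60 (SE 0.16) at 2 d, -0.17 (SE 0.18) at 7 d and 0.03 (SE 0.10) at 14 d. For the ATP synthase beta subunit (protein 337722; adjusted p = 0.0224) it was -0.09, 0.25, 0.12 and 0.00, and for the delta/epsilon subunit (protein 131619; adjusted p = 0.0353) -0.06, 0.29, 0.19 and -0.04. For NDUFS3 (protein 335838; adjusted p = 0.0399) it was -0.26, 0.15, 0.01 and 0.09, and for the FAD-dependent oxidoreductase (protein 32682; adjusted p = 0.0426) 0.40, -0.16, 0.08 and 0.05. When 1 of the 20 libraries was left out, the interaction no longer passed in 3 fits for NDUFS4, 4 for beta, 7 for delta/epsilon, 10 for NDUFS3 and 12 for the oxidoreductase. The adjusted p was highest without GR24 2 d replicate 3 for NDUFS4 (0.212), beta (0.115) and delta/epsilon (0.183), and without acetone 1 h replicate 3 for NDUFS3 (0.345) and the oxidoreductase (0.235).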

How the results depend on the processing

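These are counts of members called by edgeR's quasi-likelihood test unless said. The number of all models called also moved between these fits, so a shift in the member count is not particular to the members. GR24 against acetone at 2 d gave 0 members, but 7 without a filter on low counts, 9 in 1 fit of all time-course libraries and 1 with a replicate block. All models called at 2 d were 316 of 14704 with the settings used above and 831 of 20685 without a filter. They were 748 of 15712 in the joint fit and 504 of 14704 with the block. At 14 d the joint fit gave 0 in place of 1, and 320 in place of 457 of all models. For root exudates the settings other than left-out libraries gave 10 to 20 in place of 16, with 10 under the replicate block and 20 without a filter. All models called there were 1580 under the block and 2569 without a filter, in place of 2245. The block gave 3 in place of 5 for the interaction, and 1494 in place of 1588 of all models. The shared effect gave 0 in place of 1 with DESeq2 size factors, with no filter and with unique reads. All models called there were 603, 718 and 631, in place of 603. Leaving out 1 library gave 1 to 4 members at 1 h (3 with all), 0 to 3 at 2 d (0), 0 to 3 at 7 d (0), 0 to 1 at 14 d (1), 6 to 19 for root exudates (16), 0 to 1 for the shared effect (1) and 0 to 8 for the interaction (5). For 2 d against 1 h it gave 15 to 26 in acetone (26) and 19 to 32 with GR24 (33), and for 14 d against 1 h 28 to 40 (37) and 38 to 44 (44). Calls present whichever library was left out numbered 1 at 1 h, 4 for root exudates, 25 and 35 for 14 d against 1 h, 9 and 17 for 2 d against 1 h and 0 elsewhere. None of the 125 calls of named genes, those chosen after their values were seen included, reversed its direction under the alternatives run. The alternatives reuse most of the same libraries, so a reversal was unlikely from the start. Some of these calls did not pass in some alternatives, as given above. In comparisons with 2 libraries in a group, leaving 1 out assumes that the lone library varies like the others. For GR24 against acetone at 14 d, where no group was left with 1 library, 250 to 513 of all models were called (457 with all). No pairing of samples by equal replicate numbers was seen. Correlations of their deviations from group means ran from -0.186 to 0.0377, and 2 of 6 libraries at 14 d correlated best with their own number. With so few libraries in a group, this check cannot exclude pairing. No paired analysis was possible at 7 d because the groups share 1 number. Where such differences arise, the cause was not tested.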
